A study of Mus musculus with 20 samples.

Results

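The mouse plantaris after mechanical overload was described through 10 nuclear genes of fatty acid beta-oxidation, taken by name from 54532 genes in the count tables. The 10 genes are Cpt1b, Cpt2, Acadvl, Acadl, Acadm, Hadha, Hadhb, Etfa, Etfb and Etfdh. Each was found by its Ensembl identifier in both tables, had reads in every library, and passed the filter on low counts in each comparison. Their level was taken as CPM (the count of a gene scaled to a common library size, after the TMM step that corrects library sizes for differences in composition).

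Beta-oxidation breaks a fatty acid into acetyl-CoA inside the mitochondrion and is a main source of energy for oxidative muscle fibres. Carnitine palmitoyltransferases take part in the entry of the long chain into the mitochondrion, acyl-CoA dehydrogenases take the first electrons, and the trifunctional protein cuts the chain. The electrons pass through electron transfer flavoprotein to its ubiquinone oxidoreductase and from there to the respiratory chain.

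RNA was sequenced from the plantaris of male C57BL/6J mice, 5 months of age. The surgery was a sham operation or MOV (mechanical overload by bilateral synergist ablation, in which part of the gastrocnemius and soleus is cut away so that the plantaris carries the load). At surgery the left plantaris received a control lentivirus with TurboGFP and the right plantaris a lentivirus with a miR-1 mimic and the same reporter, and muscles were taken after 10 days. This gave 4 groups of 5 libraries, which are called sham control and MOV control after the control virus, sham mimic and MOV mimic after the mimic. The viral promoter was CMV, which is not restricted to muscle fibres, and only part of the fibres carried the reporter. All muscles had therefore been injected and infected, and no untouched muscle was compared. Both viruses went into the same mice, so the comparison of MOV with sham in control muscles and that in mimic muscles are not independent of each other. The labels do not say which libraries share a mouse. Mature miR-1 is not read by these libraries.

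Libraries held between 12036360 and 23056525 counted reads, with a median of 16940547.5. In bulk muscle a lower share of a transcript can come from fewer cells of a type or from less RNA per cell, and these cannot be told apart. The 15 muscle fibre markers summed to between 49205 and 120596 CPM, and all were present in each group. Some libraries stood apart before any comparison. Sham control replicate 1 and sham mimic replicate 1 had the lowest summed fibroblast markers (8 genes) of their groups, at 1238 and 1802 CPM against group medians of 8154 and 8905 CPM. Their summed leukocyte markers (10 genes) were also the lowest of their groups, at 182 and 185 CPM against medians of 600.2 and 507 CPM. Their fibre markers were the highest, at 113378 and 120596 CPM. MOV control replicates 4 and 5 likewise had the fewest fibroblast reads of their group (4923 and 3359 CPM, median 11519.9), the fewest leukocyte reads (172 and 185 CPM, median 479) and the most fibre reads (103040 and 106770 CPM, median 78244.8). Their summed beta-oxidation genes, 1489 and 1476 CPM, were the highest of the group. Sham control replicate 1 had the highest level in its group of 10 of the 10 beta-oxidation genes, and sham mimic replicate 1 of 9 of 10. Values without these 4 libraries follow the 2 comparisons of MOV with sham, and the part that cell composition plays in the results was not tested. MOV mimic replicate 4 had the lowest mean correlation with the other libraries (0.876, against 0.923 to 0.955 for the rest).

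**Figure D1:**
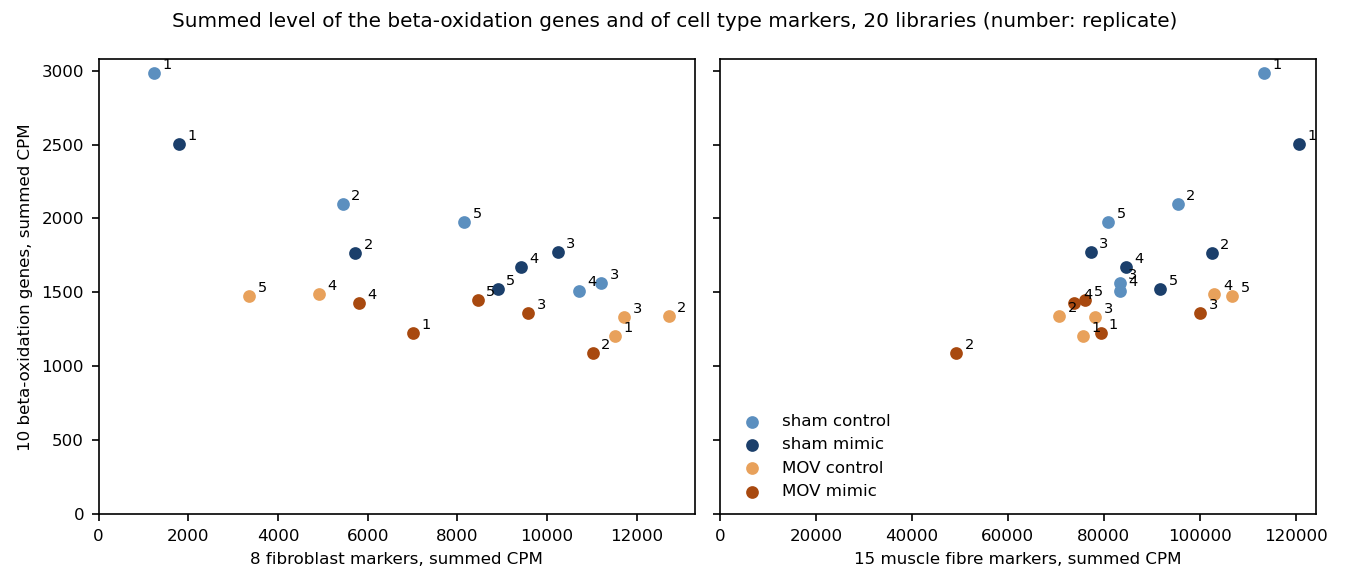
Summed CPM of the 10 beta-oxidation genes (vertical axis) against the summed CPM of 8 fibroblast markers (left) and of 15 muscle fibre markers (right), 1 point per library with its replicate number. Sham control replicate 1 and sham mimic replicate 1 are at 2982 and 2505 CPM for the beta-oxidation genes and have the fewest fibroblast reads, and the 10 MOV libraries are between 1088 and 1489 CPM.

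The promoters of the 10 genes were read from RefSeq, build GRCm38.p6, as the 250 bases before and 50 bases after the start of each gene. A window was found for 9 of the 10 genes (not for Cpt1b). In all 6 short motifs were searched on both strands. The first was AGGTCA, any base and AGGTCA, the direct repeat that binds PPAR with RXR. It was in 0 of the 9 windows and in 0.04% of all 32851 windows. The ERR motif TCAAGGTCA was in 0 of 9 (0.423% of all), and the shorter AAGGTCA, which lies within it, in 1 of 9 (4.72% of all). The NRF1-type motif (GCGCA, any base and GCGC) was in 2 of 9 (4.6%), CCAAT in 3 of 9 (37.4%) and the GC box GGGCGG in 6 of 9 (35.7%). The half-site also lies within the direct repeat where the base between its copies is A. A match is a run of letters and not a measured binding site.

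Hadha and Hadhb, which encode the alpha and beta subunits of the same enzyme, lie head to head on chromosome 5 with 272 bases between their annotated starts. The gap holds a GC box that falls in both promoter windows. It is shown as each gene reads it, 5′ to 3′, with the motif in capitals, together with the NRF1-type runs of Etfdh and Etfb and the half-site of Acadm, which are the matches to the motifs found in few of all windows.
Hadhb, plus strand, chr5:30155151-30155180: cctccgaggagaGGGCGGagtgtctgactt
Hadha, minus strand, chr5:30155151-30155180: aagtcagacactCCGCCCtctcctcggagg
Etfdh, minus strand, chr3:79628876-79628905: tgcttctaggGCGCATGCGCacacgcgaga
Etfb, plus strand, chr7:43444051-43444080: gtgttgcggcGCGCAGGCGCagagacagat
Acadm, minus strand, chr3:153944875-153944893: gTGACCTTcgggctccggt

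The 5 sequences show 1 shared site and 3 separate ones. The run in Etfdh reads the same on both strands, and that in Acadm is the half-site on the strand opposite to the gene.

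Levels between genes were compared per kilobase of the longest annotated coding transcript. In sham control muscles the 3 most abundant of the 10 were Hadhb (172 ± 49.7 CPM per kb, SD, n = 5), Acadm (165 ± 63.3) and Acadl (149 ± 43.2). Their ranges over the 5 libraries overlapped, and their order within single libraries was not tested. Etfa (138 ± 32.3) and Hadha (111 ± 31.8) followed, then Acadvl (71.1 ± 20.1) and Etfdh (64.5 ± 18.8). Etfb (30.5 ± 10.1) and Cpt2 (30.5 ± 6.06) were lower, and Cpt1b was lowest (0.902 ± 0.569). Cpt1b overlaps another annotated gene and its count is uncertain as a level, as described below. Every library of Etfb and Cpt2 was below every library of Etfdh, every library of Cpt1b was below those of both, and the other neighbours in this order overlapped. In MOV control the order was the same but for Acadm, which went to the fourth place at 89.2 ± 4.43 CPM per kb, and Cpt2, which was above Etfb.

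**Figure D2:**
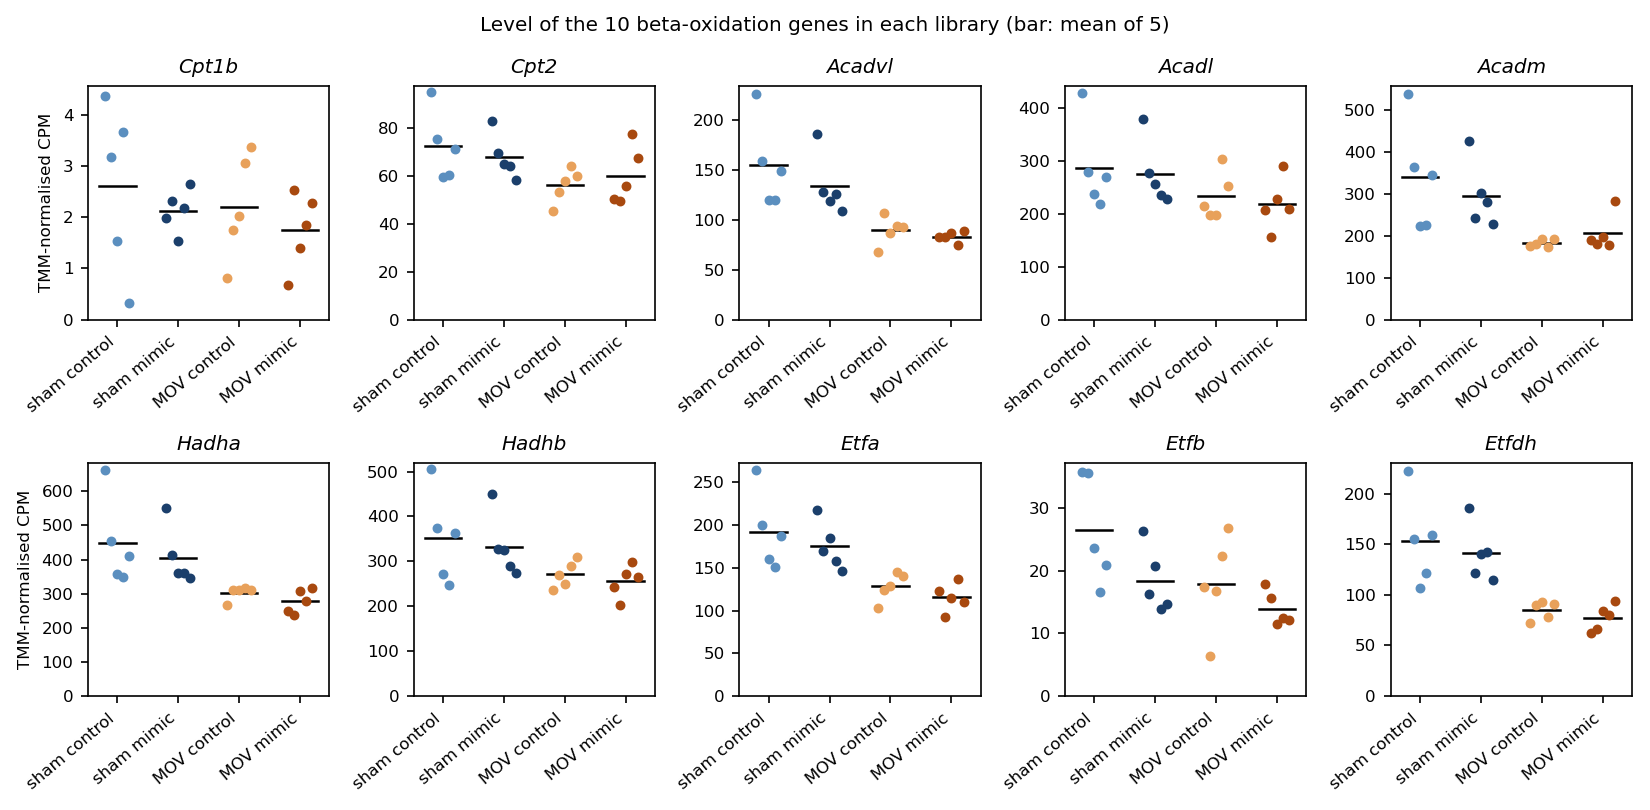
TMM-normalised CPM of each of the 10 genes, 1 panel per gene, with 5 libraries per group as points and the group mean as a bar; the vertical axes start at 0 and differ between panels. In Etfdh, Acadvl, Hadha and Etfa all MOV libraries lie below all sham libraries of the same virus, and in both sham groups the library at the left, replicate 1, is the highest for 10 and 9 of the 10 genes.

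The first question was how overload changed these genes in muscles with the control virus. All 10 genes had a lower mean level in MOV control than in sham control, with log2 fold changes (log2FC) from -0.88 (Acadm) to -0.25 (Cpt1b) and a median of -0.56, where the median of all 14974 genes tested was 0.04 and 45.8% of them were below 0. By the quasi-likelihood test of edgeR with Benjamini-Hochberg adjustment over all genes, 0 of the 10 passed an adjusted p of 0.05. That test called 1 gene in all (0.00668% of those tested), the nitric oxide synthase gene Nos1, with 2726 genes (18.2%) and 6 of the 10 at an unadjusted p under 0.05. On these libraries DESeq2 called 5 of the 10 lower (Etfdh, Acadm, Acadvl, Etfa and Hadha), against 3.48% of all genes called lower, and 0 of the 10 higher, against 2.62%. In those same 5 genes every MOV control library was below every sham control library, which held for 2.45% of all genes in that direction, and 0 of the 10 were wholly above, against 2.45% as well. The calls thus differ between tools, and each gene is given below with its own values.

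The last enzyme of the electron path had the smallest p of the 10. Etfdh, electron transfer flavoprotein ubiquinone oxidoreductase, was at 223, 155, 107, 122 and 159 CPM in the sham control libraries 1 to 5 and at 72.7, 90.5, 93.2, 78.4 and 90.7 CPM in MOV control. The highest MOV library (93.2) was below the lowest sham library (107). The log2FC was -0.84 with a standard error (SE) of 0.181, that is a fold of 0.558 (edgeR adjusted p = 0.056, DESeq2 adjusted p = 0.00138). Each SE was worked back as the size of the log2FC divided by the square root of the edgeR F statistic. Without sham control replicate 1 the log2FC was -0.67 (edgeR adjusted p = 0.108).

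The acyl-CoA dehydrogenases are ordered by the chain length they prefer, and their differences were of unequal size. Acadm and Acadvl were each tested against Acadl by ratios within libraries, given below. In control muscles neither ratio passed the exact permutation test (adjusted p = 0.0952 for both). Acadm was not tested against Acadvl. Acadvl, for very long chains, was at 226, 158, 119, 119 and 148 CPM in sham control and at 67.1, 107, 86.5, 93.2 and 92.7 CPM in MOV control. The groups did not overlap, with a log2FC of -0.78 (SE 0.187, edgeR adjusted p = 0.0672, DESeq2 adjusted p = 0.00534). Acadm, for medium chains, was at 538, 364, 222, 224 and 345 CPM in sham control and at 176, 179, 192, 173 and 192 CPM in MOV control. The 5 overloaded muscles were nearly alike, with a coefficient of variation of 4.96% against 38.3% in sham control, and all were below the sham range. The log2FC was -0.88 (SE 0.218, edgeR adjusted p = 0.0715, DESeq2 adjusted p = 0.00487). Acadl, for long chains, was at 428, 279, 237, 219 and 269.5 CPM in sham control and at 215, 197, 197, 303 and 252 CPM in MOV control. Its groups overlapped, and its log2FC of -0.29 (SE 0.194) did not pass either test (edgeR adjusted p = 0.454, DESeq2 adjusted p = 0.448). Without sham control replicate 1 it was -0.10.

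The trifunctional protein takes the next 3 steps for long chains, with Hadha as its alpha and Hadhb as its beta subunit. Hadha was at 663, 454, 359, 349 and 410.5 CPM in sham control and at 267, 311, 309, 317 and 310.0 CPM in MOV control, with no overlap. Its log2FC was -0.55 (SE 0.175, edgeR adjusted p = 0.128, DESeq2 adjusted p = 0.0384). Hadhb was at 505, 374, 272, 247 and 364 CPM in sham control and at 236, 270.4, 249, 289.8 and 309 CPM in MOV control, and the groups overlapped. Its log2FC was -0.37 (SE 0.185, edgeR adjusted p = 0.31, DESeq2 adjusted p = 0.262), and -0.21 without sham control replicate 1. Both subunits thus had lower means, and 1 of them passed DESeq2.

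Etfa and Etfb make up electron transfer flavoprotein. Etfa was at 264, 199.9, 159.8, 151 and 187 CPM in sham control and at 103, 123, 129, 145 and 141 CPM in MOV control. The highest MOV library (145) was just below the lowest sham library (151), with a log2FC of -0.58 (SE 0.163, edgeR adjusted p = 0.0983, DESeq2 adjusted p = 0.0246). Etfb had few reads, between 147 and 581 per library over the 4 groups. Its groups overlapped (16.5 to 35.8 CPM in sham control, 6.40 to 26.8 CPM in MOV control) and its log2FC was -0.56 (SE 0.325, edgeR adjusted p = 0.389). Without MOV control replicate 2, the lowest library, it was -0.34, and over all single libraries left out it ran from -0.75 to -0.34.

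Neither carnitine palmitoyltransferase passed a test. Cpt2, the enzyme of the inner membrane, was at 94.9, 75.3, 59.5, 60.4 and 71.3 CPM in sham control and at 45.4, 53.1, 57.7, 64.1 and 59.8 CPM in MOV control. The log2FC was -0.36 (SE 0.148, edgeR adjusted p = 0.219). Cpt1b, the muscle form of the enzyme of the outer membrane and the step that sets the rate of entry, had between 5 and 61 reads per library. It ranged from 0.318 to 4.36 CPM in sham control and from 0.808 to 3.36 CPM in MOV control, and its log2FC of -0.25 had an SE of 0.562. It passed neither test, and its coefficient of variation was 63.1% in sham control and 19.6% in sham mimic. Cpt1a, the form known from liver and many other tissues, was at 5.68 to 22.4 CPM over the 20 libraries, and its log2FC was -0.04 (SE 0.294, edgeR adjusted p = 0.955). In RefSeq the span of Cpt1b overlaps a second gene, Gm44502, and how the counting handled reads in overlapping genes is not given in the sources used here, so the low count of Cpt1b is uncertain as a level. Etfdh, Etfb, Acadl, Acadvl and Hadhb overlap other annotated genes too. Ppid, which overlaps Etfdh, was at 36.7 to 64.0 CPM, and Cldnd2, which overlaps Etfb, had 0 reads in 16 of 20 libraries.

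The same comparison in muscles with the miR-1 mimic gave means lower in MOV for all 10 genes again, from -0.85 (Etfdh) to -0.17 (Cpt2), with a median of -0.45 against 0.017 for all 14918 genes, 48.2% of which were below 0. edgeR called 0 genes (0% of those tested), with 1997 genes (13.4%) and 6 of the 10 at an unadjusted p under 0.05. DESeq2 called 3 of the 10 lower (Etfdh, Acadvl and Etfa), against 0.637% of all genes, and 0 higher, against 0.845%. The groups did not overlap for those 3 and for Hadha, against 1.74% of all genes in that direction, and 0 of the 10 were wholly above, against 0.992%.

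Etfdh was at 186, 121, 141, 142 and 114 CPM in sham mimic and at 62.3, 66.1, 83.9, 80.5 and 94.4 CPM in MOV mimic. The highest MOV library (94.4) was below the lowest sham library (114), and the log2FC was -0.85 (SE 0.164, edgeR adjusted p = 0.213, DESeq2 adjusted p = 0.00102). Acadvl was at 186, 128, 119, 126 and 109 CPM in sham mimic and at 82.9, 82.4, 87.0, 74.5 and 88.5 CPM in MOV mimic, with a log2FC of -0.67 (SE 0.148, edgeR adjusted p = 0.26, DESeq2 adjusted p = 0.00733). Etfa was at 217, 169, 184, 158 and 146 CPM in sham mimic and at 123, 92.5, 115, 136 and 110.2 CPM in MOV mimic, with a log2FC of -0.59 (SE 0.142, edgeR adjusted p = 0.267, DESeq2 adjusted p = 0.0141). In these 3 genes the differences were close to those in control muscles (-0.84, -0.78 and -0.58), and no library of MOV mimic reached the sham mimic range.

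Hadha was at 549.7, 413, 359, 360.0 and 347 CPM in sham mimic and at 248, 239, 308, 277 and 318 CPM in MOV mimic, with a log2FC of -0.54 (SE 0.158) that did not pass edgeR (adjusted p = 0.272) or DESeq2 (adjusted p = 0.0535). Acadm was at 425, 242, 302, 280.5 and 228 CPM in sham mimic and at 189, 181, 197, 178 and 282 CPM in MOV mimic. Replicate 5 of MOV mimic (282) lay within the sham range and the other 4 below it, and the log2FC was -0.51 (SE 0.195, edgeR adjusted p = 0.318, DESeq2 adjusted p = 0.178). Hadhb (-0.37, SE 0.159), Acadl (-0.33, SE 0.182), Etfb (-0.39, SE 0.205), Cpt1b (-0.27, SE 0.431) and Cpt2 (-0.17, SE 0.151) overlapped between groups and passed neither test. Cpt1b was at -0.07 without MOV mimic replicate 1 and at -0.45 without MOV mimic replicate 2. Cpt2 ran from -0.27 without MOV mimic replicate 4 to -0.10 without sham mimic replicate 1.

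**Figure D3:**
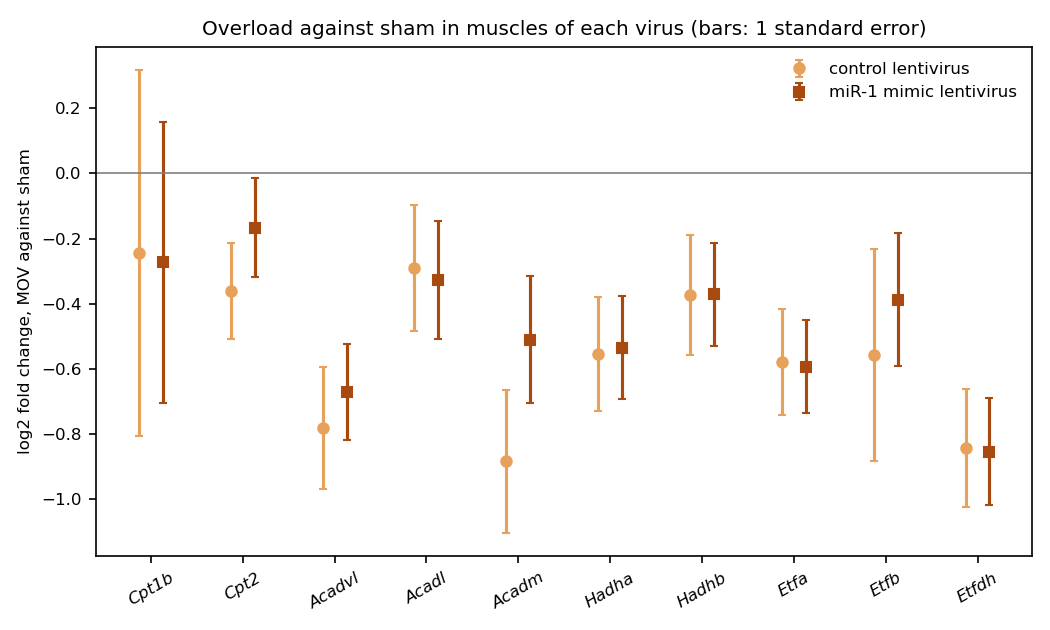
log2 fold change of MOV against sham for each of the 10 genes, with 1 standard error (worked back from the edgeR F statistic), for control muscles (circles) and mimic muscles (squares). All 20 values are below 0; Etfdh is at -0.84 and -0.85, and the widest gap between the viruses is in Acadm, at -0.88 and -0.51.

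Without sham control replicate 1 the median log2FC of the 10 genes in control muscles was -0.40 and 9 were below 0, the exception being Cpt1b at 0.01, and DESeq2 then called 3 of the 10 lower (Etfdh, Acadm and Acadvl), against 1.91% of all genes. The log2FC was then -0.67 for Etfdh, -0.66 for Acadm, -0.61 for Acadvl, -0.44 for Etfa, -0.43 for Etfb, -0.37 for Hadha and -0.25 for Cpt2. When MOV control replicates 4 and 5 were both left out, the median was -0.74 with 10 below 0. edgeR then called 0 of the 10 (0.0511% of all genes lower), and DESeq2 called 4 (Etfdh, Etfa, Acadvl and Acadm) against 5.35%. Of the genes that overlapped between groups, Acadl was then at -0.50, Hadhb at -0.49, Etfb at -0.98 and Cpt1b at -0.77. Without sham mimic replicate 1 the median in mimic muscles was -0.33 with 10 below 0, and DESeq2 called 2 (Etfdh and Acadvl), against 0.169% of all genes. The log2FC was then -0.74 for Etfdh, -0.53 for Acadvl, -0.51 for Etfa, -0.41 for Hadha, -0.35 for Acadm and -0.25 for Hadhb. It was -0.20 for Acadl, -0.24 for Etfb and -0.10 for Cpt2, each closer to 0 by over 1.5 times, and -0.30 for Cpt1b. The edgeR calls turned on single libraries as well. Without sham control replicate 3 edgeR called Etfdh, Acadm and Acadvl (adjusted p from 0.0228 to 0.0374, 1.66% of all genes lower), without MOV control replicate 5 it called Etfdh (0.0488, 1.35%), and without MOV mimic replicate 5 it called Etfdh in mimic muscles (0.0419, 0.333%). It also called Etfdh, Acadm and Acadvl in control muscles when genes with low counts were kept (adjusted p from 0.0145 to 0.0254, 0.879% of all genes lower), and Etfdh when all 20 libraries were fitted together (0.0486, 0.198%). When library sizes were set by the muscle fibre markers in place of TMM, the median of all genes moved to 0.2 in control muscles and 0.275 in mimic muscles. The median of the 10 genes was then -0.37 and -0.17, with Cpt1b at 0.046 and Cpt2 at 0.1 in mimic muscles.

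The mimic was then compared with the control virus within each surgery. In overloaded muscles the log2FC of the 10 genes was between -0.35 (Etfb) and 0.18 (Acadm), with a median of -0.11. Of the 10, 8 were below 0, against 50.7% of all genes, and with fibre marker scaling 4 of these 8 were above 0. Acadm was at 0.026 without MOV mimic replicate 5, and Etfb at -0.16 without MOV control replicate 5 and -0.57 without MOV control replicate 2. edgeR called 0 of 15220 genes (0%), with 641 (4.21%) and 0 of the 10 at an unadjusted p under 0.05, and DESeq2 called 3 genes in all (Ypel2, Entpd4 and Snord91a), none of them among the 10, which is 0.0197% of the genes tested. In sham muscles the log2FC of mimic against control was between -0.53 (Etfb) and -0.06 (Acadl), with a median of -0.14. All 10 were below 0, against 49.8% of all genes, but without sham control replicate 1 only 4 were, with a median of 0.02. Cpt2, Acadl, Acadm, Hadha, Hadhb and Etfdh were then above 0. edgeR called 0 of 14746 genes (0%), with 254 (1.72%) and 1 of the 10, Etfb, at an unadjusted p under 0.05 (0.0464, with an adjusted p of 1 by edgeR). DESeq2 called 0. In both comparisons the groups overlapped for all 10 genes. Groups without overlap were found for 0.447% of all genes (lower in mimic) and 0.315% (higher) after overload, and for 0.197% and 0.142% in sham muscles. In overloaded muscles the SE of the difference was between 0.135 and 0.156 for 7 of the genes, 0.181 for Acadl, 0.3 for Etfb and 0.522 for Cpt1b.

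Whether overload acted differently under the 2 viruses was tested by the interaction of surgery and virus over 20 libraries. The interaction was between -0.04 (Acadl) and 0.37 (Acadm, SE 0.301, unadjusted p = 0.236), and edgeR called 0 of 16166 genes (0%), with 426 (2.64%) and 0 of the 10 at an unadjusted p under 0.05. DESeq2 called 1 gene, Snord91a (0.00619%). The interaction was below 0 for 5 of the 10, against 52% of all genes, and for 0 to 7 with 1 library left out (0 without MOV control replicate 5 or sham control replicate 3, 7 without sham control replicate 1). That of Acadm was 0.16 without sham control replicate 1, 0.22 without MOV mimic replicate 5 and 0.55 without sham mimic replicate 1. The smaller difference of Acadm in mimic muscles was thus not separated from its error.

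Since genes of one pathway share the scaling of a library, ratios of their counts within a library were also taken. The pairs were chosen after the fold changes were seen, so the ratios are a description. Exact two-sided permutation tests over libraries, adjusted over the 8 ratios, gave 0.0952 or more for each, so none passed 0.05. The ratio of Acadm to Acadl was 1.26, 1.30, 0.937, 1.02 and 1.28 in sham control and 0.818, 0.909, 0.976, 0.570 and 0.762 in MOV control. The ratio of Acadvl to Acadl was 0.505 to 0.567 in sham control, a narrow range, and 0.307 to 0.541 in MOV control. The log2 difference of MOV from sham was -0.54 for the first ratio and -0.49 for the second in control muscles, and -0.17 and -0.32 in mimic muscles. Hadha to Hadhb (-0.18 and -0.16) and Etfdh to Etfa (-0.24 and -0.26) differed in the same direction under both viruses. In mimic muscles single libraries set the size of these differences. Acadm to Acadl was at -0.02 without MOV mimic replicate 4 and -0.30 without MOV mimic replicate 5, and Acadvl to Acadl at -0.17 without replicate 4. Without 1 library, Etfdh to Etfa ranged from -0.35 to -0.16 (highest without MOV mimic replicate 1) and Hadha to Hadhb from -0.20 to -0.11. None of the 8 ratios changed sign, and in none of them were the groups free of overlap.

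**Figure D4:**
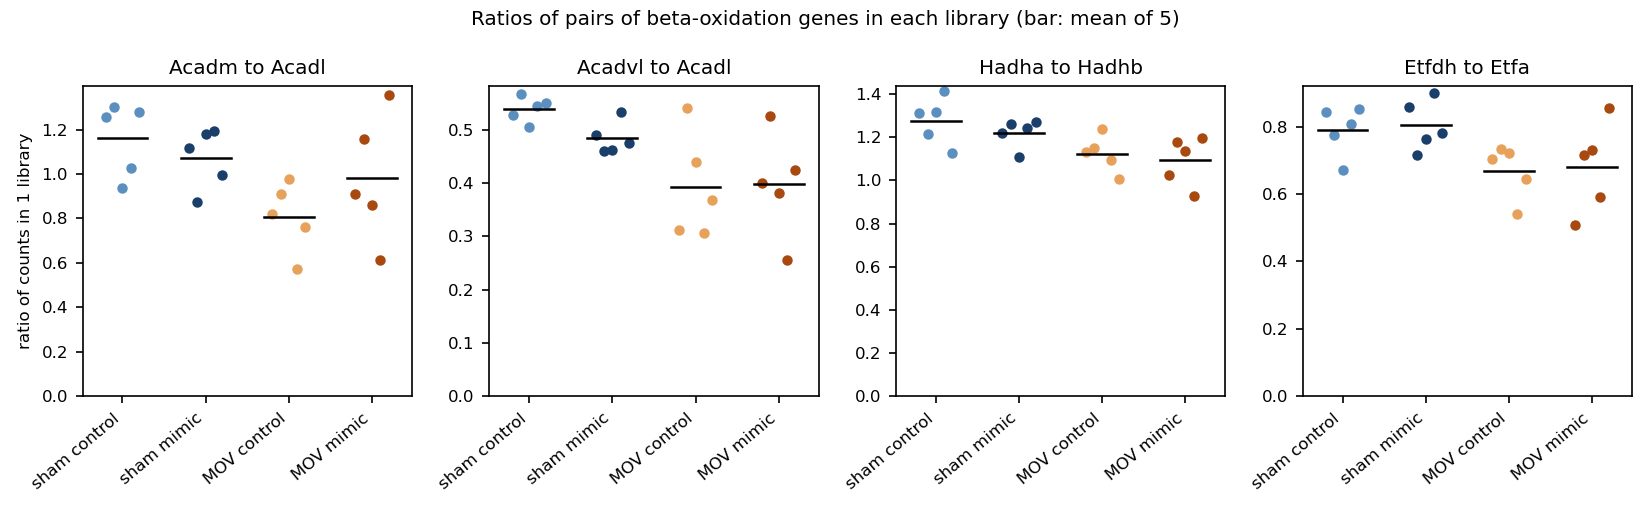
Ratio of the counts of 2 genes within each library, 4 pairs, with 5 libraries per group and the mean as a bar; the axes start at 0. The mean of each ratio is lower in MOV than in sham under the same virus, and the ranges overlap, as for Acadm to Acadl with 0.937 to 1.30 in sham control and 0.570 to 0.976 in MOV control.

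Set against citrate synthase (Cs), the first enzyme of the Krebs cycle whose activity is a common measure of mitochondrial content, the 10 genes ran from lower to higher. Cs was at 841 ± 207 CPM in sham control and 663 ± 75.7 CPM in MOV control. The log2 ratio to Cs was lower in MOV control by -0.49 for Etfdh and Acadm and by -0.45 for Acadvl. It was lower by -0.33 for Etfb, -0.25 for Etfa and -0.20 for Hadha, and differed by 0.042, -0.02 and -0.04 for Acadl, Hadhb and Cpt2. Cpt1b, with its few reads, was higher by 0.37. In mimic muscles the differences were -0.45 for Etfdh, -0.25 for Acadvl, -0.19 for Etfa, -0.12 for Hadha and -0.10 for Acadm. There Cpt2 was at 0.22, and Acadl, Hadhb, Etfb and Cpt1b lay between 0.008 and 0.071. Thus Etfdh had lower counts relative to Cs by a like amount under both viruses, and Acadl and Hadhb kept near the ratio that they had in sham muscles.

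Apart from Cpt1b and Etfb, which had few reads, the genes varied together over the libraries. Over 28 pairs the Pearson correlation of log2 CPM over 20 libraries was between 0.683 and 0.954 (median 0.856), and between 0.593 and 0.932 (median 0.817) after the group means were removed. The points share the library and its scaling. The correlation of Etfb with the 8 was 0.489 to 0.654, and 0.199 to 0.501 after the group means were removed. That of Cpt1b with the other 9 genes was 0.132 to 0.327. In control muscles the spread within groups was wider in sham than in MOV for each of the 8 genes. In mimic muscles this did not hold for Cpt2 (coefficient of variation 13.7% in sham and 19.9% in MOV) or Acadl (22.2% and 22.3%). Without replicate 1 of the sham groups the spread was wider in sham for 5 of the 8 genes in control muscles, the exceptions being Cpt2, Acadl and Acadvl, and for 1 of the 8, Acadvl, in mimic muscles. Over the 8 genes the coefficients ran between 19.9% and 38.3% in sham control, 4.96% and 19.4% in MOV control, 13.7% and 26.5% in sham mimic and 6.59% and 22.3% in MOV mimic.

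The 5 genes most like the mean standardised profile of the 10, among 8509 genes with a mean of 10 CPM or more, were Ndufv1 (r = 0.969 over 20 libraries), Eci1 (0.965), Sdha (0.963), Ndufa10 (0.956) and Acsl1 (0.951). Ndufv1 and Ndufa10 are subunits of complex I, Sdha is a subunit of succinate dehydrogenase, Eci1 an enoyl-CoA isomerase of beta-oxidation and Acsl1 the main acyl-CoA synthetase of muscle. Sdha, for example, was at a mean of 866 CPM in sham control, 545 in MOV control, 781 in sham mimic and 534 in MOV mimic.

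The steps before and after these 10 enzymes were described by further lists. edgeR called none of their genes in either comparison of MOV with sham, so the counts are by DESeq2, and the genes named from these lists were picked after their values were seen. Of 8 genes of fatty acid uptake and activation, 3 were lower in MOV control and 1 in MOV mimic, with medians of -0.37 and -0.39, where DESeq2 called 3.48% and 0.637% of all genes lower. They were Cd36, the fatty acid translocase (-1.16, DESeq2 adjusted p = 0.000336, and -0.84, 0.023 in mimic muscles), the transporter Slc27a1 (-1.23, 0.00147) and lipoprotein lipase, Lpl (-1.41, 0.000327). In mimic muscles Slc27a1 was at -0.88 and Lpl at -0.75 (DESeq2 adjusted p = 0.118 and 0.136). Of 6 genes of lipolysis, 1 was lower in control muscles, the lipid droplet protein Plin5 (-1.71, 0.00162), and 0 in mimic muscles, where Plin5 was at -1.05 (0.103). Of 5 genes of carnitine supply and shuttle, 2 were lower in control muscles, the carnitine acylcarnitine carrier Slc25a20 (-0.59, 0.0242) and carnitine acetyltransferase, Crat (-0.74, 0.0157), and 0 in mimic muscles, where they were at -0.29 (0.455) and -0.57 (0.208). Of 3 genes of malonyl-CoA control, 0 passed in either.

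Among 10 other enzymes of matrix beta-oxidation, 4 were lower in control muscles and 2 in mimic muscles, with medians of -0.52 and -0.43. Eci1 (-0.92 and -0.79) and Acaa2, the last thiolase of the pathway (-0.81 and -0.88), were lower under both viruses. Peroxisomal beta-oxidation, which shortens very long chains outside the mitochondrion, had medians nearer to 0 (-0.10 and -0.15), with 2 of 12 tested genes lower in control muscles and 1 in mimic muscles. Of 7 branched-chain and related acyl-CoA dehydrogenases, 1 was lower in control muscles and 0 in mimic muscles (medians -0.36 and -0.33).

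The Krebs cycle and the respiratory chain, which take up the products, had like medians. All 17 Krebs cycle genes were below 0 in both comparisons (medians -0.53 and -0.51), and 8 and 6 of them were lower by DESeq2. Of all genes 45.8% and 48.2% were below 0, and 3.48% and 0.637% were lower by DESeq2. All 24 nuclear respiratory chain genes were below 0 (medians -0.42 and -0.39), and 6 and 2 of them were lower. The 10 beta-oxidation genes had medians of -0.56 and -0.45, near those of the Krebs cycle, and no test of a difference between the lists was made. None of the listed metabolic genes was called higher.

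The sham libraries that stood apart moved with these lists too. Replicate 1 had the highest summed Krebs cycle genes of sham control (12521.7 CPM, median 8530.4) and of sham mimic (11288.6, median 7845.53), and likewise for the respiratory chain and for uptake and activation. Without it, all 17 Krebs cycle genes and all 24 respiratory chain genes were still below 0 under both viruses. The medians were then -0.40 and -0.41 for the Krebs cycle and -0.33 and -0.29 for the respiratory chain. DESeq2 then called 3 and 1 Krebs cycle genes lower and 3 and 0 of the respiratory chain, against 1.91% and 0.169% of all genes. Of the other lists it called 3 and 0 genes lower in uptake and activation, 1 and 0 in lipolysis, 1 and 0 in carnitine supply, 4 and 1 in other matrix beta-oxidation, 1 and 0 in peroxisomal beta-oxidation, and 0 and 0 in branched-chain dehydrogenases.

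**Figure D5:**
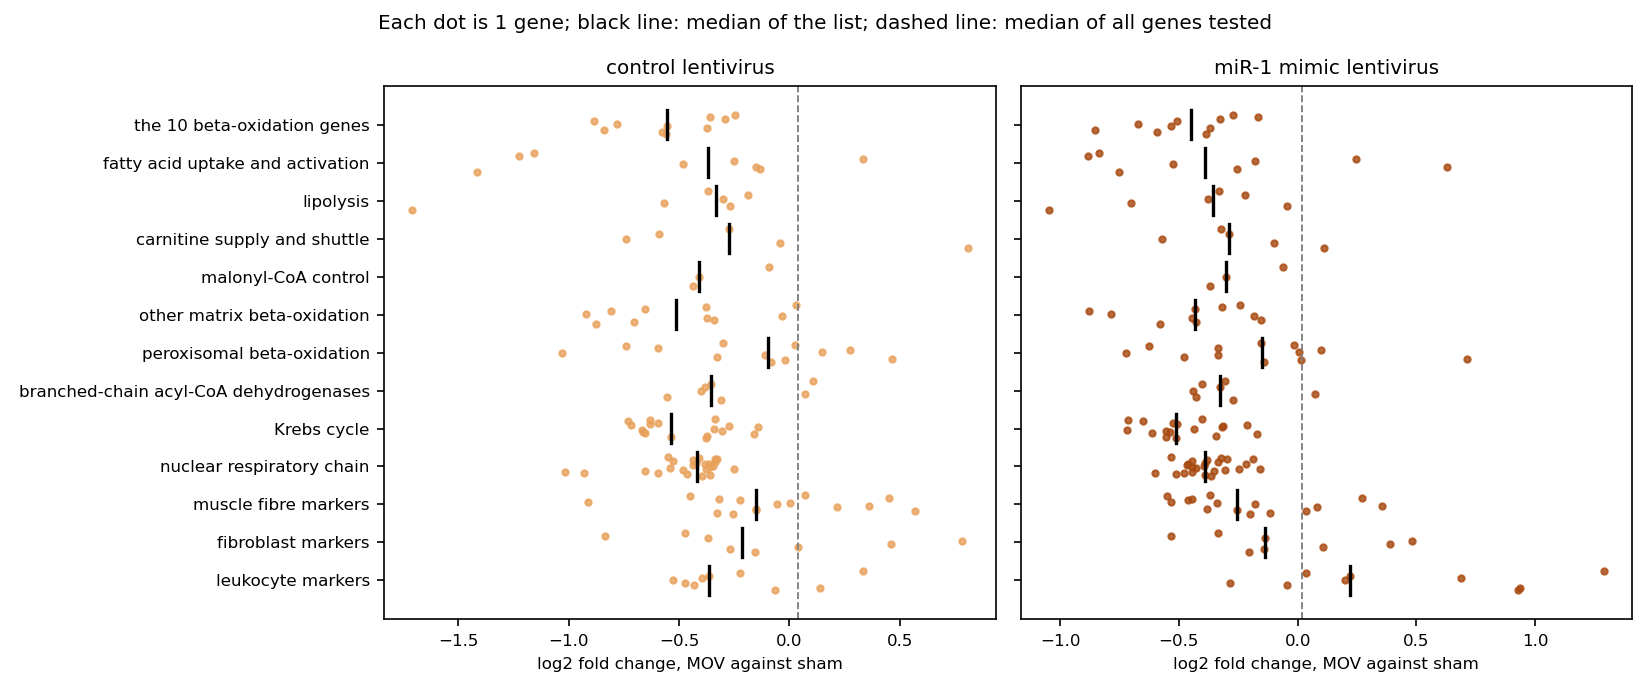
log2 fold change of MOV against sham for each tested gene of 13 lists, in control muscles (left) and mimic muscles (right); a dot is a gene, the black line the median of its list and the dashed line the median of all genes tested. The 10 beta-oxidation genes (medians -0.56 and -0.45), the Krebs cycle (-0.53 and -0.51) and the respiratory chain (-0.42 and -0.39) lie left of the line for all genes, and peroxisomal beta-oxidation (-0.10 and -0.15) lies nearer to it.

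Markers of cells in the sample moved beside these genes, and their part in the results was not tested. By edgeR 0 of the marker genes passed in any comparison, and DESeq2 called 4 of 48 lower in control muscles (Tcap, Kdr, Plin4 and Hba-a1; 8.33%, against 3.48% of all genes) and 3 of 47 lower in mimic muscles (Cdh5, Tek and Plin4; 6.38%, against 0.637%). The median log2FC of 15 muscle fibre markers was -0.15 in control muscles and -0.25 in mimic muscles, of 8 fibroblast markers -0.21 and -0.14, of 9 leukocyte markers tested -0.36 and 0.22, and of 6 endothelial markers -0.43 and -0.51. The 3 erythroid markers had medians of -1.30 and -0.16. For the mimic against the control virus in overloaded muscles, the median was -0.13 for fibre markers (12 of 15 below 0), 0.50 for leukocyte markers (1 of 9 below 0) and -0.02 for fibroblast markers. In sham muscles these medians were 0.031, -0.16 and 0.005. Of 7 adipocyte markers tested in control muscles and 6 in mimic muscles, 6 and 6 were below 0, with medians of -1.37 and -1.03. The summed adipocyte markers ran from 3657 to 5003 CPM in sham control, 3674 to 12171 in MOV control, 3328 to 6416 in sham mimic and 1623 to 5759 in MOV mimic, and most of each sum was Car3, which muscle fibres express as well. Adipoq, which defines adipocytes, was at 0.798 to 10.0 CPM in sham control and 0 to 4.36 CPM in MOV control, with 0 reads in 1 library. The summed fibroblast markers were between 1238 and 11209.7 CPM in sham control and between 3359 and 12720.5 CPM in MOV control, and the summed leukocyte markers between 182 and 781 CPM and between 172 and 654 CPM.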

How the data were processed

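The deposited tables hold raw counts of reads per Ensembl gene in 20 plantaris libraries, 1 table for control and 1 for mimic muscles. Per the labels and the study's methods the authors used FastQC 0.11.9, Cutadapt 4.4, Trim Galore 0.6.10, HISAT2 2.0.5 on GRCm38 and featureCounts 1.5.0-p3, and tested with DESeq2 1.34.0. The strand setting, the annotation release and the handling of reads in overlapping genes are not given in the sources used here. Symbols were found for 32640 of 54532 genes, and 2 of 155 listed genes had no identifier. Libraries of a group were distinct, with a chi-square per gene of at least 13.9 in each of 40 pairs.

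Groups came from the labels. In all 5 comparisons were fitted with the quasi-likelihood test of edgeR 4.0.16 (TMM, filterByExpr, two-sided, Benjamini-Hochberg adjustment over all genes tested, threshold 0.05). Alternatives were DESeq2 1.42.0, DESeq2 size factors in edgeR, library sizes from fibre markers, no filter, equal replicate numbers as a block, all 20 libraries in 1 fit, and each library left out. DESeq2 without sham control replicate 1, sham mimic replicate 1, MOV mimic replicate 4 or MOV control replicate 5, both tools without MOV control replicates 4 and 5, and the ratios, were chosen after seeing the data. Per the study's methods each surgery was done on 5 mice, with 1 virus in each leg, so the 5 libraries of a group stand for separate mice. log2 CPM used a prior count of 2. The 10 genes and all lists were chosen with earlier results of these data known. Named were the 10 genes, called genes of the other metabolic lists with the largest change, the most abundant markers and the 5 genes of most like profile, and genes outside this rule are marked as picked after their values were seen. Transcript lengths came from GENCODE M1 and positions from RefSeq (GRCm38.p6). The fits were tested on simulated counts for MOV control against sham control only. There DESeq2 recovered more of the changed genes than edgeR and made more false calls, above the share its threshold allows. Software was Python 3.11.15, R 4.3.3, pandas 2.3.3, numpy 2.4.6, scipy 1.17.1 and matplotlib 3.10.9.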

Additional observations from a re-analysis of the deposited data

Results flagged for a closer look

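In 40 groups of 5 libraries (10 genes in 4 groups), the highest or lowest library was tested for a gap to its nearest neighbour above 0.71 of the group's range, and 4 values passed. Chance gives such a gap in about 1 of 20 independent groups, and these groups are not independent, since the 10 genes share libraries. Acadl was at 428 CPM in sham control replicate 1, the highest of its group (ratio 0.711). Acadvl was at 186 CPM in sham mimic replicate 1, the highest of its group (0.75). Both are libraries with few fibroblast reads, as given above. Acadm was at 282 CPM in MOV mimic replicate 5, the highest of its group (0.822), and Hadha at 267 CPM in MOV control replicate 1, the lowest of its group (0.841).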

How the results depend on the processing

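Of 200 values of the 10 genes under the alternatives for MOV control against sham control, 198 kept their direction. In mimic muscles 178 of 180 kept their direction. For the mimic against the control virus 154 of 160 values in overloaded and 152 of 160 in sham muscles kept theirs, and for the interaction 195 of 250, with none past the threshold.

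The number of genes called in MOV control against sham control was 913 with DESeq2, 388 with no filter, 36 with all 20 libraries fitted, 0 with fibre marker scaling, 509 with DESeq2 without sham control replicate 1, 1487 with DESeq2 without MOV control replicate 5, and 1214 with DESeq2 and 12 with edgeR when MOV control replicates 4 and 5 were left out, against 1 in edgeR on all libraries. When 1 library was left out it was between 0 and 426; the highest counts came without sham control replicate 3 (426) and without MOV control replicate 5 (318). Members called lower there numbered 5 with DESeq2 (3.48% of all genes lower), 3 with no filter (0.879%) and 1 with all 20 libraries (0.198%). With DESeq2 they numbered 3 without sham control replicate 1 (1.91%) and 5 without MOV control replicate 5 (5.83%). Without MOV control replicates 4 and 5 DESeq2 called 4 (5.35%). In edgeR with 1 library left out they numbered 0 to 3 (0% to 1.66%). In MOV mimic against sham mimic the genes called numbered 221 with DESeq2, 1 with no filter, 3 with all 20 libraries, 66 with DESeq2 without sham mimic replicate 1, 110 with DESeq2 without MOV mimic replicate 4, and 0 to 101 with 1 library left out (101 without MOV mimic replicate 5). The members lower there by DESeq2 numbered 3 on all 10 libraries (0.637% of all genes lower) and 2 without sham mimic replicate 1 (0.169%). Without MOV mimic replicate 4 they numbered 3 (0.406%). In edgeR with 1 library left out they numbered 0 to 1 (0% to 0.333%). DESeq2 called 3 genes, and the fit of all 20 libraries 1, in MOV mimic against MOV control, and DESeq2 called 1 for the interaction. The cause of these differences was not tested.

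Cpt1b in MOV control against sham control was at 0.004 in DESeq2 without sham control replicate 1, and at -0.53 to 0.01 with 1 library left out in edgeR. Fibre marker scaling turned Cpt1b (0.046) and Cpt2 (0.1) in MOV mimic against sham mimic, Acadl (0.05), Acadvl (0.041), Hadha (0.004) and Hadhb (0.056) in MOV mimic against MOV control, and the interaction of Cpt1b (0.132), Acadl (0.041), Hadhb (0.068), Etfdh (0.033) and Etfa (0.054). The interaction of Hadhb was 0.014 in DESeq2, 0.015 with DESeq2 size factors and 0.000 with no filter, and that of Etfdh 0.002 in both of the first. With 1 library left out, Acadl in MOV mimic against MOV control was at -0.21 to 0.023. In sham mimic against sham control Cpt2 was at -0.17 to 0.017, Acadl at -0.19 to 0.12, Acadm at -0.36 to 0.022, Hadha at -0.27 to 0.036, Hadhb at -0.21 to 0.074 and Etfdh at -0.24 to 0.044. The interaction then ran from -0.27 to 0.26 for Cpt1b, -0.21 to 0.11 for Acadl, -0.05 to 0.26 for Acadvl, -0.15 to 0.16 for Hadha, -0.15 to 0.14 for Hadhb, -0.17 to 0.11 for Etfdh, -0.14 to 0.079 for Etfa and -0.049 to 0.373 for Etfb.

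Both viruses went into the same mice, and the labels do not say whether equal numbers are the same mouse. The deviations of control and mimic libraries of equal number from their group means correlated at 0.0116 to 0.663 (mean 0.198, against -0.05 for unequal numbers), with 7 of 10 pairs over 0.1. Of 20 libraries 13 correlated best with their own number, a hint from the data that the numbers may pair legs of a mouse. Since not all pairs were over 0.1, the unpaired fit was kept. With the numbers as a replicate block, edgeR called 0 genes for the mimic against the control virus in either surgery. The edgeR adjusted p of the 10 genes was 0.828 to 0.928 in overloaded muscles and 0.9995 in sham muscles. Acadm was at 0.16 in overloaded muscles and Etfb at -0.50 in sham muscles. The log2 CPM differences of equal numbers 1 to 5 were 0.099, 0.014, 0.031, 0.042 and 0.557 for Acadm. For Etfb they were -0.44, -1.125, -0.189, -0.247 and -0.499. These 2 were picked for having 1 direction in 5 of 5, and the share of all genes with this was not counted. With the block the interaction of Hadha was at -0.01. MOV and sham are different mice, so the block has no meaning there. It gave 1 and 0 genes called, and Etfdh at -0.80 and -0.85.

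Cpt1b (5 to 61 reads per library) and Etfb (147 to 581) had few reads.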
